A study of Mus musculus with 8 samples.

Results

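The genes described here encode the translation initiation factors (eIF) and elongation factors (eEF) of the mouse, with the kinases, repressors and methyltransferases whose symbols carry the same prefix. They were taken as every gene whose symbol starts with Eif or Eef followed by a digit, leaving out Eif2ak2, Eif2ak3 and pseudogene symbols, that reached a normalised expression value of 10 in 4 or more libraries. Of 23318 genes listed in each library, 62 carried such a symbol and 60 passed that minimum, among 12906 genes that did so in all. The study sequenced RNA of sorted epithelial cells from the mouse small intestine. CD24Neg cells lacked the surface glycoprotein CD24 and CD24Mid cells carried an intermediate amount of it, and the study also calls the second fraction CD24low. Both had been cleared of leukocytes by CD45 and of cells that bind the lectin of Ulex europaeus. There were 4 libraries of each fraction, described in the series text as biological replicates, with title numbers 2, 4, 6 and 8 in CD24Neg and 1, 3, 5 and 7 in CD24Mid. The labels give no genotype, strain, age or sex, nor whether mice were pooled or how pure the sorts were.

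Translation begins when eIF2 brings the initiator methionyl-tRNA to the small ribosomal subunit, on which eIF3 serves as a scaffold, and when the cap-binding complex of eIF4E, eIF4G and the helicase eIF4A recruits the mRNA. eIF2B recharges eIF2 with GTP, and kinases that phosphorylate the alpha subunit of eIF2 block that step, while 4E-BP proteins hold eIF4E away from eIF4G. In elongation eEF1A delivers aminoacyl-tRNA, the eEF1B subunits recharge eEF1A, and eEF2 moves the ribosome along the message. The intestinal epithelium is renewed from dividing cells at the base of the crypts, and growing cells are known to make much of this machinery.

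Values below are the authors' normalised expression values per Ensembl gene, which are not counts. Whether they are divided by transcript length was not established, so levels are compared between fractions and never between genes. Per-library values run in the order of the title numbers. Differences are CD24Neg minus CD24Mid on the scale of log2(value + 0.5), which understates changes of low genes, with the standard error (SE) of the fit. A gene was called where limma's Benjamini-Hochberg adjusted p over the 12906 genes was below 0.05, and each p reflects the spread between these libraries.

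The libraries of both fractions were epithelial by their markers but differed in several other ways. All 8 epithelial markers examined, Epcam and Vil1 among them, passed the minimum, with a sum of 11024 to 13705 ppm of nuclear-gene values in CD24Neg and 10226 to 12924 ppm in CD24Mid. Mitochondrially encoded genes held 28.3 to 37.4% of all values in CD24Neg and 8.03 to 9.10% in CD24Mid, and 4504 to 5085 genes in CD24Neg and 3011 to 3258 in CD24Mid were listed at 0. Of 10 T cell and intraepithelial lymphocyte markers 9 passed the minimum, and their sum was 34.7 to 606 ppm in CD24Neg, highest in libraries 2 and 8, and 9.80 to 27.2 in CD24Mid. Of 7 plasma cell markers 6 passed, with sums of 284 to 371 in CD24Neg and 625 to 1073 in CD24Mid. Of 7 myeloid markers 5 passed, with sums of 13.9 to 31.5 in CD24Neg and 40.2 to 68.9 in CD24Mid. Of 8 stroma and endothelium markers 1 passed, with sums of 1.04 to 3.70 in CD24Neg and 1.37 to 2.96 in CD24Mid, where Pdgfra and Col1a2 were at 0. Of 5 smooth muscle markers 1 passed, with sums of 2.54 to 3.21 in CD24Neg, where Cnn1 was at 0, and 1.27 to 1.84 in CD24Mid, where Des was at 0. Of 5 red blood cell markers 0 passed, with sums of up to 0.160 in CD24Neg, where Hbb-bs and Hbb-bt were at 0, and up to 0.274 in CD24Mid. Within both fractions the libraries with title numbers 1 to 4 lay apart from those numbered 5 to 8 on the third principal component, which held 4.9% of the variance. No label calls that split a batch.

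Most translation factor genes were lower in CD24Neg. Of the 60 tested, 42 (70%) were called lower in CD24Neg and 4 (6.67%) higher, against 34.3% lower and 34% higher among all genes tested. In total 46 of the 60 (76.7%) were called, against 68.3% of all genes tested. The libraries of the fractions did not overlap for 43 of the 60 (71.7%), against 63.8% of all genes tested. The median difference of the 60 was −0.64, against −0.02 over all genes tested, and 50 of the 60 lay below 0. In bulk RNA of a sorted fraction, fewer cells of a type and less RNA per cell cannot be told apart. The 4 genes called higher were Eif4ebp3, Eif4e3, Eif2ak1 and Eif6. Without the 3 repressor genes Eif4ebp1 to Eif4ebp3, 40 of 57 were called lower and 3 higher.

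How large the differences were depended on the scaling of the libraries. In the authors' scaling 8 of the 60 (13.3%) differed by more than 2-fold, 6 lower and 2 higher, while 39.6% of all genes tested did. With quantile normalisation 46.7% of the 60 differed by more than 2-fold, 26 lower and 2 higher, against 38.6% of all genes. With libraries scaled to totals without mitochondrially encoded genes it was 61.7% of the 60, 36 lower and 1 higher, against 43.6% of all genes. In the authors' scaling a difference between 0 and 1 log2 unit lower in CD24Neg was found for 73.3% of the 60 and for 29.8% of all genes tested. In a test against a fold change of 1.5 instead of 0 change, 15 of the 60 were still called lower: Eif1ax, Eif2s1, Eif2s3x, Eif2b3, Eif2ak4, Eif3b, Eif3d, Eif3e, Eif3m, Eif4a1, Eef1a1, Eef1b2, Eef1d, Eef1g and Eef2kmt. In that test 1 gene was called higher, Eif4ebp3.

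**Figure D1:**
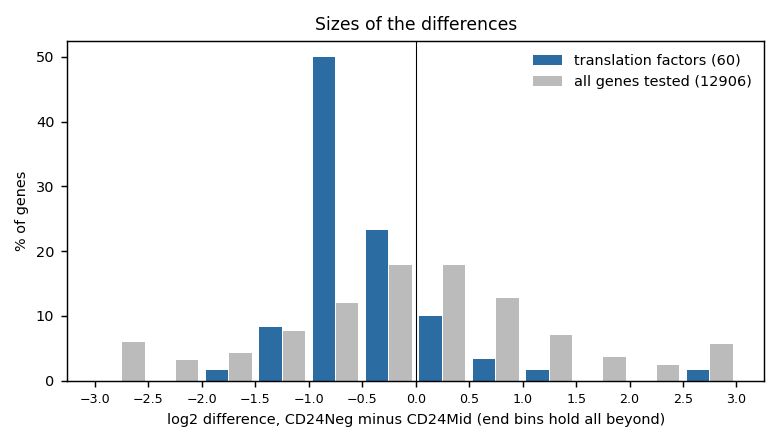
Share of genes (%, vertical axis) by log2 difference, CD24Neg minus CD24Mid, in bins of 0.5 (horizontal axis), for the 60 translation factor genes (blue) and the 12906 genes tested (grey), in the authors' scaling. The blue bars pile up between −1 and 0, where 73.3% of the translation factor genes and 29.8% of all genes lie.

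As a share of the values of all nuclear genes, the 62 listed Eif and Eef genes together made up 1.32% ± 0.122 in CD24Neg and 2.91% ± 0.171 in CD24Mid (SD, n = 4 each). The libraries ranged from 1.23 to 1.502% in CD24Neg and from 2.72 to 3.13% in CD24Mid. Without Eef1a1 it was 0.905% ± 0.0519 in CD24Neg and 1.80% ± 0.0714 in CD24Mid. The summed values, the mitochondrial share, the zeros and the marker sums given above moved with the fractions too, and their part in these results was not tested. Without CD24Neg libraries 2 and 8, which had the most lymphocyte marker signal, 39 of the 60 were called lower and the same number, 4, were called higher. All 42 genes called lower lay below 0, and all 4 called higher lay above 0, both among title numbers 1 to 4 and among 5 to 8. The calls were made on these same libraries, which largely sets that outcome, so it is no separate support. The zero line depends on the scaling: with libraries scaled to totals without mitochondrially encoded genes, the median of all genes tested moved to −0.48 and that of the 60 to −1.10, with 54 called lower and 3 higher. With quantile normalisation the medians were −0.06 and −0.86, with 50 called lower and 3 higher.

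**Figure D2:**
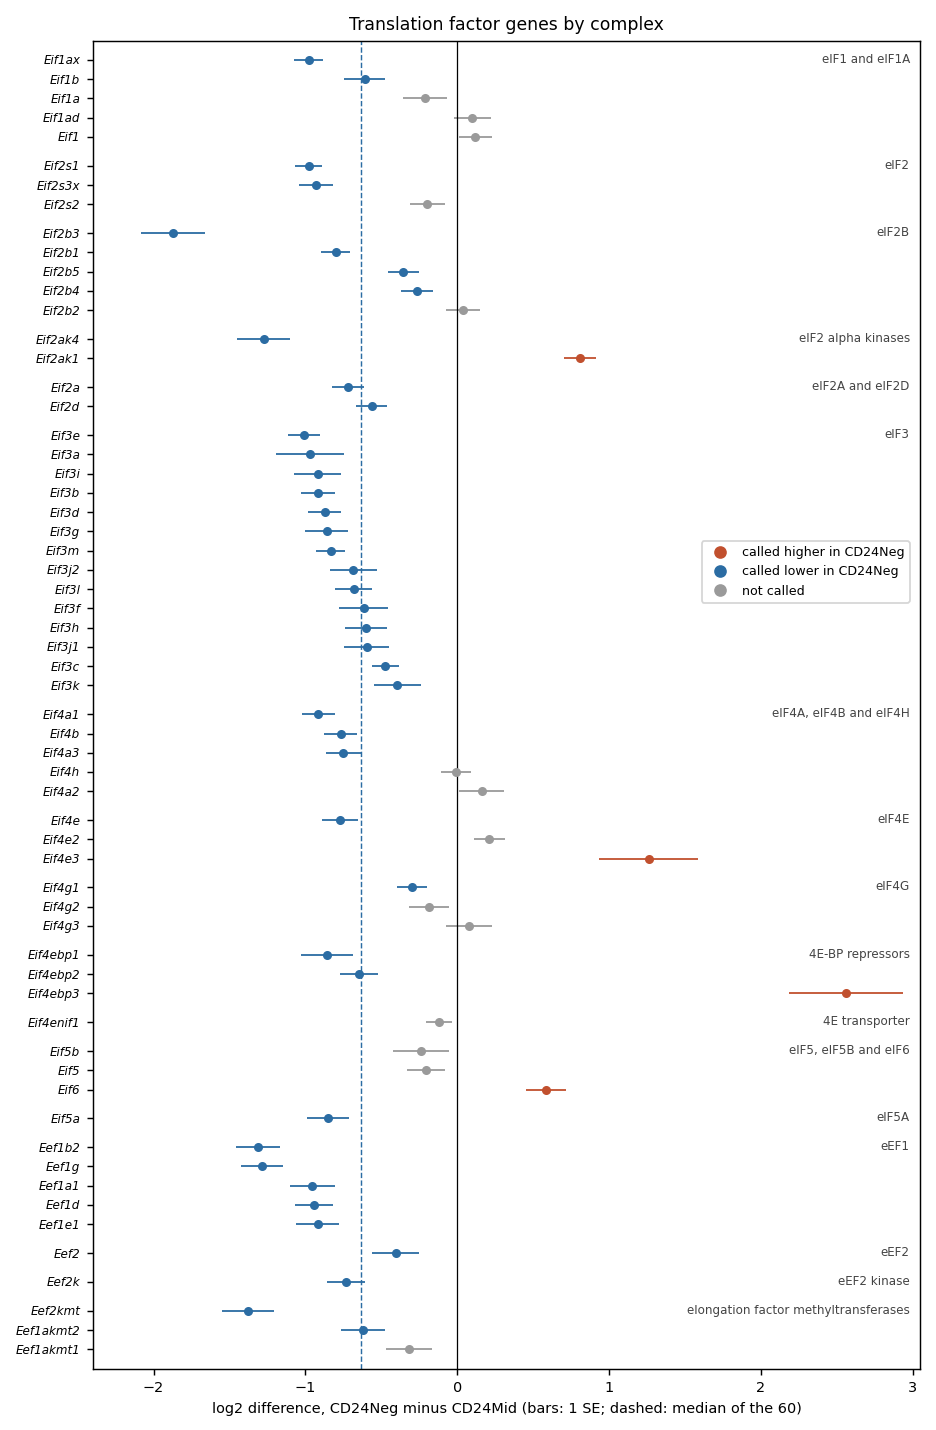
Log2 difference, CD24Neg minus CD24Mid (horizontal axis, bars 1 SE), of each of the 60 translation factor genes, grouped by complex; the dashed line marks their median of −0.64. All 14 eIF3 genes and all 5 eEF1 genes lie left of 0, and Eif4ebp3 lies farthest right at 2.56.

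Of the 3 eIF2 genes, 2 were called lower in the authors' scaling and all 3 with quantile normalisation or scaling to totals. eIF2 has a regulatory alpha, a beta and a GTP-binding gamma subunit. Eif2s1, the alpha subunit and the target of the stress kinases, had values of 564, 572, 621 and 618 in CD24Neg and 1062, 1180.2, 1222 and 1223 in CD24Mid. The fractions did not overlap, and the gene was lower in CD24Neg by 1.97-fold (log2 difference −0.98, SE 0.09, limma adjusted p = 5.81e-06). Eif2s3x, the X-linked gene of the gamma subunit, differed in the same direction (−0.93, limma adjusted p = 3.83e-05). Eif2s2, the beta subunit, had values of 1344, 1293, 1419.9 and 1627 in CD24Neg and 1421, 1512, 1711 and 1887 in CD24Mid, which overlapped, and was not called (−0.20, limma adjusted p = 0.16). It was called lower under those other scalings, at −0.57 to −0.66.

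The eIF1 and eIF1A genes act in scanning for the start codon, and Eif1ad was grouped with them by its name. Of these 5 genes, 2 were called lower in the authors' scaling, 4 with quantile normalisation and all 5 with scaling to totals. Eif1ax, the X-linked eIF1A gene, had values of 748, 782, 724 and 706 in CD24Neg and 1292, 1617, 1466 and 1479.8 in CD24Mid (−0.98, SE 0.09, limma adjusted p = 8.65e-06). Its paralogue Eif1a had 853, 750.3, 999 and 1131 in CD24Neg and 947, 962, 1198 and 1195 in CD24Mid, so that the fractions overlapped (−0.21, limma adjusted p = 0.217). Eif1b had 217, 205, 177 and 179 in CD24Neg and 325, 331, 290.1 and 246 in CD24Mid and was called lower (−0.61, limma adjusted p = 0.0024). Eif1 stood at 5508, 4486, 5057 and 4556 in CD24Neg and 5043, 4544, 4356 and 4112 in CD24Mid and was not called, at a difference of 0.12 that became −0.31 to −0.40 under total or quantile scaling. Eif1ad, an eIF1A domain gene, had 875, 1085, 1096 and 846 in CD24Neg and 1003, 972, 847 and 812 in CD24Mid (0.10, limma adjusted p = 0.492, and −0.33 to −0.37 when scaled to totals). Eif1a and Eif1ax are close copies, so reads could be divided between them by the estimation, and Eif1ad overlaps Banf1 on the other strand.

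Of the 5 eIF2B genes, 4 were called lower, with differences that ranged from −1.87 to 0.04. Eif2b3, the gamma subunit of the catalytic part, had values of 41.9, 67.5, 36.7 and 57.8 in CD24Neg and 168, 194, 193 and 177 in CD24Mid, the largest downward difference of any factor gene in the authors' scaling; with quantile normalisation that of Eef1a1 was larger. It was 3.66-fold lower in CD24Neg (log2 difference −1.87, SE 0.21, limma adjusted p = 2.49e-05). Eif2b1, the alpha subunit, Eif2b5, the catalytic epsilon subunit, and Eif2b4, the delta subunit, were called lower at −0.80, −0.36 and −0.27. Eif2b2, the beta subunit, had 482, 445, 476 and 489.7 in CD24Neg and 497, 534, 401 and 424 in CD24Mid and was not called (0.04, limma adjusted p = 0.781, and −0.39 to −0.43 when scaled to totals). The call of Eif2b4 was lost on leaving out CD24Neg library 4, 6 or 8 or CD24Mid library 1, 3 or 5, with differences of −0.23 to −0.28 and limma adjusted p of 0.072 to 0.107.

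The tested kinases of the eIF2 alpha subunit moved in opposite directions. Eif2ak1 encodes the haem-regulated kinase HRI, and had values of 1509, 1641, 1910.2 and 1424 in CD24Neg and 953, 943, 853 and 935 in CD24Mid. All CD24Neg libraries lay above all CD24Mid libraries, a 1.75-fold difference (log2 0.81, SE 0.11, limma adjusted p = 8.28e-05). The gene overlaps Aimp2 on the other strand, whose values were lower in CD24Neg (400.2 to 425) than in CD24Mid (468 to 574). Eif2ak1 also overlaps Ankrd61 on the other strand, whose values were higher in CD24Neg (16.6 to 22.1) than in CD24Mid (8.05 to 13.7). Eif2ak4 encodes GCN2, which senses uncharged tRNA when amino acids run short, and had 101, 102, 67.3 and 75.3 in CD24Neg and 177, 219, 226 and 209 in CD24Mid. It was 2.42-fold lower in CD24Neg (log2 −1.28, SE 0.18, limma adjusted p = 0.000112). Eif2a and Eif2d, which can deliver initiator tRNA by other routes, were both lower. Eif2a had 666, 723, 860.2 and 801 in CD24Neg and 1168, 1190.1, 1348 and 1296 in CD24Mid (−0.72, limma adjusted p = 0.000162). Eif2d had 466, 455, 432 and 398 in CD24Neg and 677, 713, 571 and 631 in CD24Mid (−0.56, limma adjusted p = 0.000717).

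All 14 tested eIF3 genes were called lower in CD24Neg, against 34.3% of all genes tested. The fractions did not overlap for 13 of the 14, against 63.8% of all genes tested. The eIF3 differences ran from −1.01 to −0.39 with a median of −0.76, so the spread within eIF3 was narrower than within eIF2B. Eif3e had the largest, with values of 1133, 1023, 1296 and 1265 in CD24Neg and 2234, 2563, 2424 and 2246 in CD24Mid (2.01-fold lower, SE 0.10 on the log2 scale, limma adjusted p = 1.39e-05). Eif3a, the large core subunit, which was picked out after its values were seen, had 1772, 2498, 2861 and 2957 in CD24Neg and 3589, 3983, 6011 and 6374 in CD24Mid, and its CD24Mid libraries 5 and 7 stood well above 1 and 3. Its difference was −0.85 among title numbers 1 to 4 and −1.09 among 5 to 8. Eif3k, one of the small subunits, had the smallest, with 1526, 1216, 1053 and 1129 in CD24Neg and 1895, 1860.3, 1406 and 1327 in CD24Mid, which overlapped (−0.39, limma adjusted p = 0.0459). Leaving out CD24Neg library 4, 6 or 8 or CD24Mid library 1 or 3 ended that call, at differences of −0.32 to −0.39 and limma adjusted p of 0.0831 to 0.12. Eif3j1 and Eif3j2 are near-identical copies whose values may share reads, and both were called lower (−0.60 and −0.69).

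**Figure D3:**
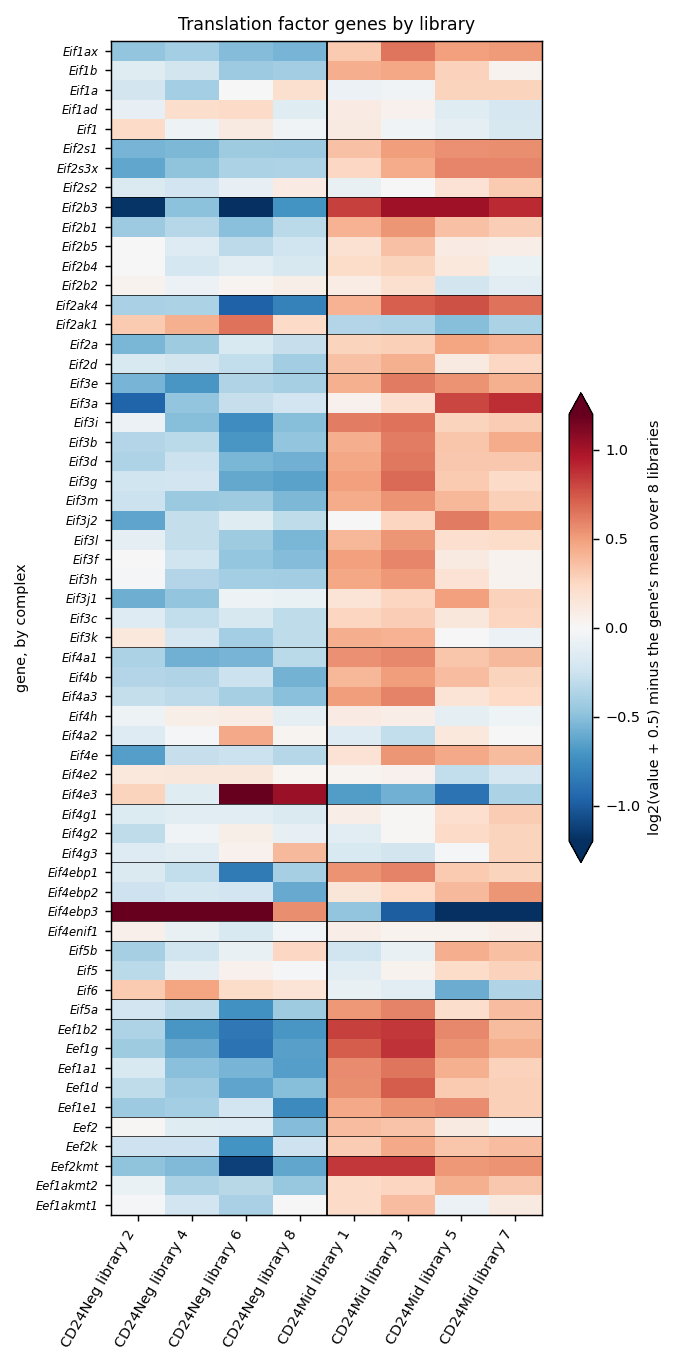
Log2(value + 0.5) of each translation factor gene minus its mean over the 8 libraries (colour), by library (columns, CD24Neg left of the line and CD24Mid right of it) and by complex (rows, separated by lines). The block of 14 eIF3 rows and the 5 eEF1 rows are blue in CD24Neg and red in CD24Mid, apart from pale cells such as Eif3k in CD24Neg library 2.

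In the cap-binding machinery some paralogues were called lower and others were called higher or not called. Eif4a1, the main eIF4A helicase of growing cells, had values of 4626, 4022, 4065 and 4807 in CD24Neg and 8754, 8926, 7535 and 7852 in CD24Mid, 1.89-fold lower in CD24Neg (limma adjusted p = 3.88e-05). Eif4a2, its close paralogue, had 3612, 3966, 5499.9 and 4098 in CD24Neg and 3612, 3267, 4374 and 4006 in CD24Mid, overlapped between the fractions and was not called (0.16, limma adjusted p = 0.357, and −0.35 under quantile normalisation). Eif4a3, the helicase of the exon junction complex, had 919.9, 902, 849.9 and 795 in CD24Neg and 1593, 1693, 1259 and 1329 in CD24Mid and was lower (−0.75, limma adjusted p = 0.000218). Eif4b, which stimulates the helicase, was lower too (−0.77, limma adjusted p = 0.000113). Eif4h, a relative of eIF4B, had 4401, 4797, 4863 and 4239.9 in CD24Neg and 4912, 4825, 4224 and 4425 in CD24Mid and a difference of −0.01, and it was called lower with quantile normalisation (−0.51) and with scaling to totals (−0.43 and −0.47). Eif4a2 overlaps Rfc4 on the other strand, which had lower values in CD24Neg (61.0 to 105) than in CD24Mid (460.4 to 557), and whether the libraries were stranded is not given.

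Eif4e, the cap-binding protein itself, had 557, 725, 733 and 691 in CD24Neg and 993, 1271, 1205 and 1146 in CD24Mid, 1.71-fold lower in CD24Neg without overlap (log2 −0.77, SE 0.12, limma adjusted p = 0.000238). Eif4e2, a cap-binding homologue that takes part in repression, had 1183, 1188, 1191 and 1099 in CD24Neg and 1107, 1119.8, 881 and 944 in CD24Mid and was not called (0.21, limma adjusted p = 0.0936). Its difference was −0.26 with libraries scaled to totals without mitochondrially encoded genes. Eif4e3, the third family member, had 70.8, 53.2, 153 and 121 in CD24Neg and 36.7, 39.3, 31.6 and 45.1 in CD24Mid and was 2.40-fold higher in CD24Neg (log2 1.26, SE 0.32, limma adjusted p = 0.00586). Every CD24Neg library lay above every CD24Mid library, but libraries 6 and 8 were far above 2 and 4, and the difference was 0.68 among title numbers 1 to 4 and 1.84 among 5 to 8.

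Among the eIF4G scaffolds, Eif4g1 had 6362, 6517, 6554 and 6336 in CD24Neg and 7551, 7235, 8199 and 8797 in CD24Mid and was lower by a small amount (−0.30, limma adjusted p = 0.0221). That call was lost without CD24Neg library 2, 4 or 8 or CD24Mid library 5 or 7, at differences of −0.25 to −0.30 and limma adjusted p of 0.0512 to 0.0696. Eif4g2, a relative without the eIF4E-binding site, had 7225, 8628, 9366 and 8306 in CD24Neg and 8084, 8992, 10449.9 and 10750.0 in CD24Mid, and Eif4g3 had 707, 719, 819 and 1031 in CD24Neg and 693, 678, 775 and 950.1 in CD24Mid. Neither was called (−0.19 and 0.08, limma adjusted p = 0.226 and 0.665). Eif4g2 was called lower with quantile normalisation and with scaling to totals, and its lowest difference over the alternatives was −0.77. Eif4enif1, which carries eIF4E into the nucleus, had 892, 802, 752 and 836 in CD24Neg and 901, 880.4, 883 and 905 in CD24Mid. It was not called (−0.12, limma adjusted p = 0.222), but was called lower with quantile normalisation and scaling to totals, with a lowest difference of −0.59.

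The 3 repressors of eIF4E, the 4E-BP genes, did not move together. Eif4ebp1 had values of 149, 138, 93.5 and 128 in CD24Neg and 245, 255, 210.2 and 203 in CD24Mid, with no overlap. It was 1.81-fold lower in CD24Neg (log2 −0.86, SE 0.17, limma adjusted p = 0.00119). Eif4ebp2 had 681, 702, 689.6 and 535 in CD24Neg and 895, 955, 1062 and 1168 in CD24Mid and was 1.57-fold lower (log2 −0.65, SE 0.12, limma adjusted p = 0.000932). Eif4ebp3 (ENSMUSG00000090264) went the other way, with 125, 104, 136 and 61.9 in CD24Neg and 30.0, 20.7, 12.1 and 10.8 in CD24Mid. Its lowest CD24Neg library stood above its highest CD24Mid library, and it was 5.90-fold higher in CD24Neg (log2 2.56, SE 0.37, limma adjusted p = 0.000161). This was the largest difference among the 60 genes in the authors' scaling, and it was 2.10 with libraries scaled to totals without mitochondrially encoded genes. The difference was 2.17 among title numbers 1 to 4 and 2.96 among 5 to 8. The annotation places a gene called AC115631.1 over Eif4ebp3 on the same strand. It has no value in the deposited data, so reads of its transcripts could have been assigned to Eif4ebp3.

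**Figure D4:**
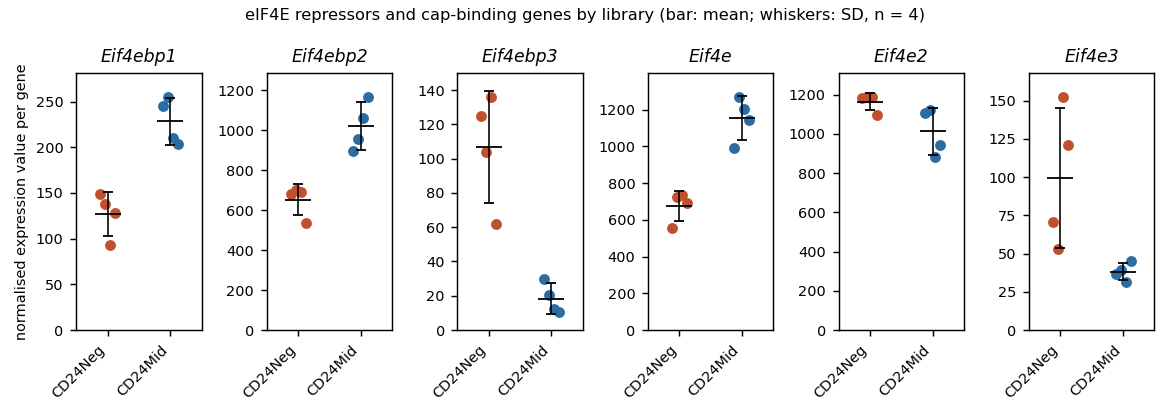
Normalised expression value per gene (vertical axis, from 0) in each CD24Neg (red) and CD24Mid (blue) library for the 4E-BP genes and the eIF4E genes; the bar is the mean and the whiskers the SD of 4 libraries. Eif4ebp3 and Eif4e3 are the panels in which all CD24Neg points lie above all CD24Mid points, and Eif4e2 is the panel in which the fractions overlap.

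Of 3 factors of subunit joining, 1 was called higher and 0 lower in the authors' scaling, and 0 higher and 2 lower with quantile normalisation or scaling to totals. Eif6, which keeps free large subunits from joining small ones, had 2986, 3329, 2787 and 2691 in CD24Neg and 2262, 2188, 1586 and 1872 in CD24Mid and was higher in CD24Neg (log2 0.59, SE 0.13, limma adjusted p = 0.00254). The fractions did not overlap, but the call was lost with quantile normalisation and with scaling to totals, where the difference was as low as 0.12. Eif5, the GTPase-activating partner of eIF2, had 2993, 3452, 3877 and 3689 in CD24Neg and 3414, 3869.6, 4379 and 4554 in CD24Mid and was not called (−0.21, limma adjusted p = 0.165). Eif5b, which joins the subunits, was not called (−0.24, limma adjusted p = 0.269). Both were called lower under those other scalings, Eif5 at −0.64 to −0.72 and Eif5b at −0.56 to −0.71. Eif5a, the hypusine-carrying factor that helps ribosomes past difficult peptide bonds, had 4704, 4458, 3335 and 4117 in CD24Neg and 7944, 8374, 6406 and 7160.2 in CD24Mid and was 1.80-fold lower (limma adjusted p = 0.000308). Its relative Eif5a2 did not pass the minimum, with values of 0 to 7.44 in CD24Neg and 1.86 to 7.49 in CD24Mid.

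All 5 eEF1 genes were called lower in CD24Neg without overlap, with differences of −1.31 to −0.92 and a median of −0.95. Among all genes tested, 34.3% were called lower and 63.8% did not overlap. Eef1a1, which encodes the main tRNA carrier, had 75069, 60276, 57833 and 53843 in CD24Neg and 126622, 132708, 114379 and 103485 in CD24Mid, 1.94-fold lower in CD24Neg (limma adjusted p = 0.000267, and a log2 difference of −2.70 with quantile normalisation). Eef1b2, the nucleotide exchange subunit, had 4657, 3711, 3341 and 3731 in CD24Neg and 10673, 10854, 8991 and 7877 in CD24Mid. It was 2.48-fold lower in CD24Neg (log2 −1.31, SE 0.14, limma adjusted p = 2.21e-05). Eef1g, the structural gamma subunit, was 2.44-fold lower (−1.28, limma adjusted p = 1.94e-05), and Eef1d, a further exchange subunit, 1.93-fold lower. Eef1e1, a scaffold protein of the tRNA synthetase complex, had the smallest difference, with 149, 152, 172 and 118 in CD24Neg and 276, 293, 299 and 246 in CD24Mid (−0.92, limma adjusted p = 0.000232). Eef1d shares part of its span and its strand with Naprt, whose values were higher in CD24Neg (5019 to 5944) than in CD24Mid (613 to 1137). Eef1a1 has many near-identical copies in the genome, and its values are uncertain to that extent.

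Eef2, the translocase, had values of 40075, 35888, 35630.4 and 27820.2 in CD24Neg and 51372, 50484, 43003 and 39509 in CD24Mid. The fractions overlapped, since CD24Neg library 2 stood above CD24Mid library 7. The gene was called lower by 1.33-fold (log2 −0.41, SE 0.15, limma adjusted p = 0.0364). The call was lost without CD24Neg library 4, 6 or 8 or CD24Mid library 1, 3 or 5, at differences of −0.30 to −0.45 and limma adjusted p of 0.0516 to 0.102, and the difference was −1.82 with quantile normalisation. Eef2k, the kinase that inactivates eEF2, had 477, 478, 345 and 478 in CD24Neg and 699.5, 779, 717 and 735 in CD24Mid and was 1.66-fold lower (log2 −0.73, SE 0.12, limma adjusted p = 0.000405). CD24Neg library 6 was the lowest by a wide margin, and the other 3 libraries of that fraction were nearly equal.

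Of the methyltransferases that modify the elongation factors, Eef2kmt, which methylates eEF2, had 135, 131, 87.0 and 123 in CD24Neg and 341, 342, 273 and 275 in CD24Mid, 2.60-fold lower in CD24Neg (log2 −1.38, SE 0.17, limma adjusted p = 4.89e-05). It overlaps Alg1 on the other strand. Eef1akmt2 was called lower (−0.62, limma adjusted p = 0.00326), a call lost with quantile normalisation. Eef1akmt1 had 152, 132, 118 and 155 in CD24Neg and 181, 200.2, 147 and 166 in CD24Mid and was not called (−0.32, limma adjusted p = 0.0864). It was called lower with scaling to totals, and its lowest difference over the alternatives was −0.78. Eef1akmt3 did not pass the minimum, with values of 1.19 to 6.09 in CD24Neg and 3.49 to 12.8 in CD24Mid.

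Because so many of these genes were lower together, their promoters were searched for short motifs over 250 bases before and 50 bases after each annotated start, on both strands, in RefSeq sequence of the build GRCm38.p6. Promoter sequence was at hand for 46 of the 60. Among the genes called higher, Eif2ak1 had such sequence, and Eif4ebp3, Eif4e3 and Eif6 did not. A gene counted as carrying a motif if any of its annotated starts had it. The E-box CACGTG, to which the transcription factor Myc and related proteins bind, was found in 11 of the 46 (23.9%), in 11.8% of 9675 tested genes and in 8.09% of 27025 genes of the table. Counted by annotated start, the E-box was found at 21.3% of the starts of the members and at 9.89% of those of all tested genes. It was present in 10 of the 34 genes called lower and in 1 of the other 12, Eif4h. That split depends on the calls in the authors' scaling. Eif4h was called lower with quantile normalisation and scaling to totals. The calls of Eef2, Eif4g1 and Eif3k, which carry the E-box, were lost on leaving out some single libraries. Eef2k, Eif4e and Eif5a carry it at some annotated starts and not at others. The stretches around the E-box are shown for 5 members that were called lower and carry it in different roles, elongation, its kinase, scanning, cap binding and scaffolding, with the E-box in capitals. They lie at chr10:81176568-81176613 (Eef2, plus strand), chr7:120842780-120842825 (Eef2k, plus strand), chr9:120492562-120492607 (Eif1b, plus strand), chr3:138527184-138527229 (Eif4e, plus strand) and chr16:20672653-20672698 (Eif4g1, plus strand).
Eef2: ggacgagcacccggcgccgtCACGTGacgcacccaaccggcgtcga
Eef2k: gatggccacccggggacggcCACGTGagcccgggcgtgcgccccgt
Eif1b: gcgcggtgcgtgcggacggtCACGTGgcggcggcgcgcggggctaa
Eif4e: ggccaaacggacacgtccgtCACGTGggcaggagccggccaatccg
Eif4g1: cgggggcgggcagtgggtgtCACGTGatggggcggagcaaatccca

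The letters CCGGAAG, an element of the ETS family of factors, were found in 16 of the 46 (34.8%), against 20.4% of the tested genes. They were present in 11 of the 34 genes called lower (32.4%) and in 5 of the other 12 (41.7%). TGATGCAA, an element bound by the stress factor ATF4, was found in 0 of the 46, against 0.796% of the tested genes. A start-site tract of a C followed by 5 or more pyrimidines, as in the mRNAs with a 5′ terminal oligopyrimidine (TOP) tract whose translation mTORC1 controls, was found within 5 bases of the annotated start on the gene's own strand in 8 of the 46 (17.4%) and in 13.1% of the tested genes. It was present in 7 of the 34 genes called lower and in 1 of the other 12. The stretches from 60 bases before to 20 after the start are shown for Eef1a1, Eif3f and Eif2s3x, all called lower, with the tract in capitals. They lie at chr9:78481705-78481784 (Eef1a1, minus strand), chr7:108934355-108934434 (Eif3f, plus strand) and chrX:94212632-94212711 (Eif2s3x, minus strand).
Eef1a1: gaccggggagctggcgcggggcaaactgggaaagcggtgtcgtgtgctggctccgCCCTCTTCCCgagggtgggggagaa
Eif3f: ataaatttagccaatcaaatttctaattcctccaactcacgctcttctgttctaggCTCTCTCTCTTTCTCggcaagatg
Eif2s3x: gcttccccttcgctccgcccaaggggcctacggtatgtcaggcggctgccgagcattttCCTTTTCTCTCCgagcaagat

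None of the motifs contains another, and a match describes letters in a window and no binding. Eef1a1 has the tract and no E-box, Eif3f has both, and the other factor genes carry both, either or none, so that no motif searched for was common to all genes called lower.

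Ratios of paralogues and partners within a library do not depend on how the libraries are scaled, apart from the 0.5 added to each value. Of 17 pairs set for this comparison, 14 could be formed from tested genes, each compared by an exact two-sided permutation test of 4 against 4 libraries, whose smallest possible p is 0.0286. In 8 pairs the libraries did not overlap and that smallest p was reached. Of all single genes tested, 63.8% did not overlap between the fractions, and no share over other gene pairs was computed. After Benjamini-Hochberg adjustment over the 14 pairs it was 0.05, and 0 pairs fell below 0.05. The log2 ratio of Eif4a1 to Eif4a2 was 0.04 ± 0.35 in CD24Neg and 1.12 ± 0.30 in CD24Mid (SD, n = 4 each, exact permutation p = 0.0286). That of Eif4e to Eif4e2 was −0.79 ± 0.20 in CD24Neg and 0.19 ± 0.26 in CD24Mid, and that of Eif4e to Eif4e3 was 2.87 ± 0.66 in CD24Neg and 4.90 ± 0.26 in CD24Mid. The ratio of Eif4ebp1 to Eif4ebp3 was 0.29 ± 0.65 in CD24Neg and 3.71 ± 0.53 in CD24Mid on the log2 scale, a 10.7-fold difference. The log2 ratio of Eif4e to Eif4ebp3 was 2.71 ± 0.57 in CD24Neg and 6.05 ± 0.76 in CD24Mid.

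Among the 6 pairs whose libraries overlapped, the ratio of Eif4e to Eif4ebp1 differed by 0.09 (exact permutation p = 0.857) and that of Eif4e to Eif4ebp2 by −0.12 (exact permutation p = 0.457). The ratio of Eif4g1 to Eif4g2 differed by −0.11 (exact permutation p = 0.286) and that of Eef2 to Eef2k by 0.33 (exact permutation p = 0.171), both with overlap. Without overlap, Eif1 to Eif1b and Eif1a to Eif1ax were higher in CD24Neg in every library, by 0.73 and 0.77, and Eif4g1 to Eif4g3 differed by −0.38. These libraries are 4 per fraction, and a p above 0.05 here does not show that a ratio was equal.

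**Figure D5:**
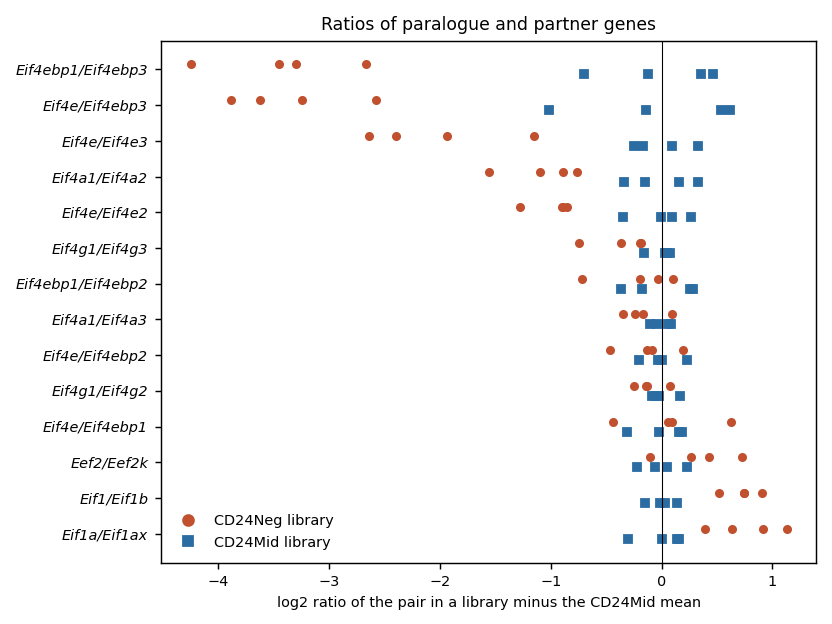
Log2 ratio of 14 gene pairs in each CD24Neg (red circles) and CD24Mid (blue squares) library, as the distance from the CD24Mid mean of that pair (horizontal axis). The points of the fractions are apart in 8 pairs, farthest for Eif4ebp1 to Eif4ebp3 at −3.42, and mixed in the other 6.

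Other genes of translation and its control were called in both directions. Of 73 tested in 8 lists, 33 were called lower and 15 higher in CD24Neg, to be read against the 34.3% lower and 34% higher of all genes tested. Scaling to totals without mitochondrially encoded genes gave 54 lower and 7 higher. All 7 called of 9 genes of poly(A) binding were lower, among them Pabpc1, the main poly(A)-binding protein and partner of eIF4G, at 7899 ± 239 in CD24Neg and 19906 ± 1331 in CD24Mid (SD, n = 4 each). Its log2 difference was −1.33 (limma adjusted p = 2.05e-06). Its relative Pabpc4 was lower as well (−1.38, limma adjusted p = 1.63e-06). Of 9 genes that make hypusine on eIF5A and diphthamide on eEF2, 6 were lower and 0 higher, and the 6 were all of the diphthamide route. The smallest adjusted p belonged to Dph6 (−1.63, limma adjusted p = 8.76e-06) and Dph1 (−1.27, limma adjusted p = 1.32e-05), while the hypusine enzymes Dhps and Dohh were not called (0.20 and −0.13). Dph3, also of the diphthamide route, was not called either (0.18, limma adjusted p = 0.206). Of 7 termination and recycling genes 4 were lower, led by Denr (−0.89) and Abce1 (−1.39), and Hbs1l, a ribosome rescue factor, was higher (0.50).

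Signalling genes were mixed. Of 16 genes of mTORC1 and its outputs 4 were higher, 4 lower and 8 not called. Pdcd4, an inhibitor of the eIF4A helicase, had 1236 ± 80.8 in CD24Neg and 3707 ± 154 in CD24Mid and was lower (−1.59, limma adjusted p = 3.82e-07). The other 3 lower genes, named after their values were seen, were Deptor, an inhibitor of mTOR (−0.61), Rps6kb1, the main S6 kinase (−0.46, limma adjusted p = 0.0356), and Mknk2, a kinase of eIF4E (−0.32, limma adjusted p = 0.0108). Rps6kb2, an S6 kinase (1.18), Mknk1, a further kinase of eIF4E (1.09), Tsc2, a brake on mTORC1 (0.57), and Rragc (0.37) were higher. In the integrated stress response, the programme set off by eIF2 alpha phosphorylation, 6 of 11 genes were higher and 2 lower. Trib3 had 146 ± 22.4 in CD24Neg and 5.66 ± 3.08 in CD24Mid (4.67, limma adjusted p = 1.28e-06). Ddit3, which encodes CHOP, had 580.1 ± 126 in CD24Neg and 138 ± 24.1 in CD24Mid (2.06, limma adjusted p = 4.56e-06). Asns, asparagine synthetase, was lower (−1.07, limma adjusted p = 4.85e-05), as was Gcn1l1, a partner of GCN2 (−0.49).

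Of 5 other initiation helicases and ABC50, Dhx9 and Dhx29 were lower (−1.06 and −0.98) and the other 3 were not called. Selenocysteine incorporation divided evenly, with 3 genes higher and 3 lower: Sephs2, a selenophosphate synthetase, was higher (0.84) and Eefsec, the elongation factor for selenocysteine, lower (−1.10). Of 10 mitochondrial translation factors 5 were lower, with Gfm1 (−0.62) and Mtrf1 (−1.28) at the smallest adjusted p, and 1 was higher, Mtif3 (0.59).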

How the data were processed

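Libraries of RNA from sorted small intestinal epithelial cells were made with a TruSeq kit, as the labels' protocols state, and samples were grouped by title and sample group label. The signal values deposited by the authors are normalised expression estimates per Ensembl gene, 1 file per library. Bowtie 0.12.8 and the build NCBIM37 are named in the submitters' processing notes; the estimation version, the annotation release and the normalisation tool are not given there or in the labels. Each library's median ratio to the gene-wise geometric mean was 1.01, so the values were already scaled. Read depth is unknown, so no counting interval is given, and values near the minimum are the least precise.

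Symbols came from GENCODE M21 by identifier, matching 21223 of 23318 genes and leaving 2095 without one. After keeping genes that reached 10 in 4 or more libraries and centring by median ratios, log2(value + 0.5) entered limma 3.58.1 (R 4.3.3), with eBayes using trend and robust variance, no covariates and 6 residual degrees of freedom, after the fit had been tested on simulated data. Ratios of pairs used exact permutation tests in scipy 1.17.1. The alternatives were quantile normalisation, no centring, scaling to totals without the 20 most abundant or the mitochondrially encoded genes, no filter, a filter by fraction, pseudocounts of 0.1 and 1, limma without trend, a test against 1.5-fold and leaving out each library. A term for title numbers 1 to 4 and 5 to 8, a replicate block of adjacent title numbers, and leaving out CD24Neg libraries 2 and 8, were chosen after seeing the data.

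The members and lists were chosen with earlier results of these data known. Values in every library are given, by rule, for the members with the largest and smallest difference of each complex, the repressors and kinases, genes of a pair and the 8 largest differences among genes higher or not called. In other lists the rule named the 2 smallest adjusted p and calls in the opposite direction. Those genes are given by log2 difference, some with means, and not by library. Eif3a, Dhps, Dohh, Dph3, Deptor, Rps6kb1, Mknk2 and the overlapping genes were named after their values were seen. Protein sequences were not used here. A further marker list is not reported here.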

Additional observations from a re-analysis of the deposited data

Results flagged for a closer look

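In 120 groups of 4 libraries, 4 held a library far from the other 3 by Dixon's criterion, where chance flags about 1 group in 20. Eif4ebp2 was low in CD24Neg library 8, at 535 against 681 to 702 in the other CD24Neg libraries. Eif4e2 was low in the same library, at 1099 against 1183 to 1191. Eif3h was high in CD24Neg library 2, at 2331 against 1778 to 1865. Eef2k was low in CD24Neg library 6, at 345 against 477 to 478.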

How the results depend on the processing

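The fractions share no replicate number and no label pairs libraries. In the data, deviations from the fraction means correlated between adjacent title numbers (0.28 to 0.33) and less in every other combination (−0.26 to 0.03), a hint and not part of the design. A replicate block of adjacent numbers, chosen after seeing the data, gave 46 members called lower and 4 higher, and 4771 and 4733 of all genes. It called Eif2s2, Eif1a, Eif5 and Eif5b lower (limma adjusted p of 0.0454 to 0.0496) and changed no other member's call. Leaving out each library in turn gave 38 to 41 members called lower and 4 higher, and leaving out CD24Neg libraries 2 and 8 gave 39 and 4. A term for title numbers 1 to 4 and 5 to 8 gave 45 and 5. Over 21 alternatives, 17 of the 60 members kept their direction and side of the threshold in every one and 43 changed under at least 1. The 21 include the test against a fold change of 1.5, which asks a stricter question. For many members, Eif3a, Eif4e and Eif5a among them, it was the only alternative that changed the call. The test against a fold change of 1.5 left 15 members lower and 1 higher, 2 complexes in place of 11 with over 50% of members lower, 2430 genes lower and 2360 higher of all, and 17 and 6 of the other translation genes. In it Eif4ebp1 (−0.86, limma adjusted p = 0.16) and Eif4ebp2 (−0.65, limma adjusted p = 0.585) were not called. Scaling to totals that leave out the 20 most abundant genes gave 2842 genes higher (30.4% of calls, against 49.8%), 53 members lower and 3 higher, and 8 other translation genes higher and 54 lower, against 15 and 33. Totals without mitochondrially encoded genes gave 2723 higher and 6695 lower (28.9% higher), against 4386 and 4424, and 7 and 54 other translation genes. Under both scalings, and with quantile normalisation, 56 of the 60 lay below 0, against 50. Of the members that turned negative, those then called lower were, in that order, Eif2b2 (−0.39, −0.43), Eif1ad (−0.33, −0.37) and Eif1 (−0.31, −0.35), in the second also Eif4e2 (−0.26), and with quantile normalisation Eif1 (−0.40) and Eif4a2 (−0.35). The difference in the ratio of Eif4e to Eif4ebp1 ranged from −0.10 to 0.26 on leaving out each library, and was below 0 without CD24Neg library 6 (−0.10) and without CD24Mid library 1 (−0.02). As a share of all values the 62 listed Eif and Eef genes made up 0.891% in CD24Neg and 2.66% in CD24Mid. Without Eef1a1 they made up 0.905% of nuclear values in CD24Neg and 1.80% in CD24Mid. The cause of these changes was not tested. Values carry no strand or read depth, a correction for length was not established, and overlapping or near-identical genes remain uncertain.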
